A study of Mus musculus with 56 samples.

Results

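The nuclear-encoded subunits of the mitochondrial respiratory chain and ATP synthase were followed across the day in the anterior hypothalamus of mice fed either by day or by night. The members were chosen by gene symbol alone, as all symbols that start with Ndufa, Ndufb, Ndufc, Ndufs or Ndufv (but not Ndufaf), Sdha to Sdhd, Uqcr, Cox4 to Cox8, or Atp5. Of 107 such symbols in the annotation, 19 were pseudogenes and 88 were coding genes, 86 of which were in the table. The filter kept genes with a value of at least 1 in 80% of the 56 mice, and 84 of the 86 passed it, out of 16245 genes past the filter and 17564 in the table. Complex I (NADH dehydrogenase) contributed 37 members, complex II (succinate dehydrogenase) 4, complex III (cytochrome bc1) 8, complex IV (cytochrome c oxidase) 18 and complex V (ATP synthase) 17. Ndufa4, Ndufa4l2 and Cox7a2l were placed with complex IV. Cox7b2 passed with 51 mice at 1 or above, Cox8b and Ndufb4b did not pass with 33 each, and Cox8c and Ndufb1 were not analysed here. None of the 13 subunits encoded by mitochondrial DNA was in the table, so all values concern nuclear genes.

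All animals were C57BL/6J females of 9 weeks on a 12 h light, 12 h dark cycle with normal chow. For 7 days food was offered only in the light phase, from ZT0 to ZT12 (day time-restricted feeding, DRF), or only in the dark phase, from ZT12 to ZT0 (night time-restricted feeding, NRF), where ZT is zeitgeber time in hours after lights-on. Tissue was taken every 4 h at 7 time points from ZT0 to ZT24, with 4 mice in each of the 14 groups, so that the ZT0 and ZT24 mice were different animals. No group was fed ad libitum, and each tissue was bulk, so that fewer cells of a type and less RNA per cell cannot be told apart.

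The respiratory chain passes electrons from NADH and succinate through complexes I to IV to oxygen and pumps protons across the inner mitochondrial membrane. Complex V uses the returning protons to make ATP. Most subunits are encoded in the nucleus, and their genes are known targets of nuclear respiratory factor 1 (gene Nrf1, not to be confused with NRF the regimen), of the ETS factor GABP and of the coactivator PGC-1alpha, while neurons depend heavily on this pathway for their ATP.

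Because members turned out to move together, their proximal promoters were read from RefSeq (GRCm38.p6), 250 bases before to 50 bases after the start. Sequences were found for 68 of the 84 members and for 12810 of the genes tested, and both strands were searched for 4 motifs, none of which contains another. The nuclear respiratory factor 1 core CGCATGCG was in 9 members (13.2%) against 3.62% of all genes with a promoter sequence. The ETS core CCGGAAG, to which GABP can bind, was in 17 members (25%) against 16.8%. The YY1 motif AAGATGGC was in 10 members (14.7%) against 4.4%, and the E-box CACGTG, the element of CLOCK and BMAL1, was in 6 members (8.82%) against 10.9%. A match describes these letters only. The stretches below, the 100 bases before the RefSeq start on the gene's strand, were chosen after the values were seen to show the motifs in members whose values follow, with the motif in capitals.
Atp5k, nuclear respiratory factor 1 core, chr5:108434400-108434499, minus strand: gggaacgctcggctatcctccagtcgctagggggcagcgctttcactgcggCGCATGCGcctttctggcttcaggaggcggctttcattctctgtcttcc
Atp5g2, nuclear respiratory factor 1 core, chr15:102671048-102671147, minus strand: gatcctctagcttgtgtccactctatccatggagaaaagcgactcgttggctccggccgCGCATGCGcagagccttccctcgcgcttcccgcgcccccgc
Cox6b1, ETS core on the opposite strand, chr7:30626115-30626214, minus strand: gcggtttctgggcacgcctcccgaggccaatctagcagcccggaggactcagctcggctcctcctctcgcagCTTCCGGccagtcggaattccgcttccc
Uqcr11, ETS core, chr10:80406822-80406921, minus strand: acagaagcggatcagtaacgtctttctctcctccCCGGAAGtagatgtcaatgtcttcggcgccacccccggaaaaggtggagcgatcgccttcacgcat
Atp5g1, E-box (the RefSeq start lies inside the gene as annotated in GENCODE, so the stretch overlaps that gene's 5′ end), chr11:96075632-96075731, minus strand: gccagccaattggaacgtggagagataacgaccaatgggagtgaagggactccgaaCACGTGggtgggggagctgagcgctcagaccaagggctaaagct
Ndufv3, none of the 4 in this stretch, chr17:31520015-31520114, plus strand: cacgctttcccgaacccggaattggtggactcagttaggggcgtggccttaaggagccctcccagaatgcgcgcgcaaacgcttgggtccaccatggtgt

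Values are given on 2 scales. The deposited values turned out to be proportional to log2(CPM + 1), where CPM is a gene's read count scaled to the library total,, divided by gene length, and log2(CPM + 1) was recovered from them. Differences between mice are differences on the log2(CPM + 1) scale, which understates changes of genes near 0. Levels are compared between genes as CPM per kb of gene length. For most genes this length is that of all annotated exons joined, which can exceed the length of the transcript expressed. Normalised libraries held 29591283 to 34493373 reads, and mice of one group correlated at 0.984 to 0.998 over 84 pairs. In the 2 DRF libraries of ZT16 replicates 3 and 4, deviations rose with the GC content of genes by 0.31 and 0.48 log2 per 10% GC, against -0.15 to 0.14 in the other 54 libraries. These 2 libraries stand apart, and results that rest on them are given with and without them. Neuron markers summed to 3767 to 5674 CPM in DRF and 4483 to 5452 CPM in NRF. The 10 anterior hypothalamus markers were detected in both regimens, at 405.1 to 950.4 CPM in DRF and 449 to 927.9 CPM in NRF. The 3 markers of muscle and brown fat summed to 2.539 to 4.629 CPM in DRF and 2.12 to 4.733 CPM in NRF, with Ckm and Ucp1 at a median under 0.1 CPM in both. Blood markers ran from 203.4 to 2207 CPM in DRF and from 180 to 491.1 CPM in NRF, oligodendrocyte markers from 3965 to 8106 CPM (median 5662) and from 5182 to 8499 CPM (median 6340), and striatum markers up to 353.8 CPM and 194 CPM.

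Steady levels differed widely between subunits, and far more than between times of day. Among the 82 members with a known length, the median was 51.2 CPM per kb. Complex medians ran from 42.5 in complex I through 45.1 in complex II and 52.2 in complex V to 77.6 in complex IV and 78.1 CPM per kb in complex III. Complex I ranged from Ndufb2 at 4.79 to Ndufc2 at 105 CPM per kb, both of which encode accessory subunits. Undivided, these 2 stood at 26.96 and 79.09 CPM, with lengths of 5628 and 754 bases, so much of their contrast comes from the length used. Complex II ranged from the membrane anchor Sdhc at 30.2 to the flavoprotein Sdha at 125, and complex III from Uqcrq at 35.4 to Uqcrb at 109 CPM per kb. Complex V ranged from Atp5l at 15.2 (98.26 CPM, 6443 bases) to Atp5a1, the alpha subunit of the F1 head, at 272 CPM per kb (851.2 CPM, 3135 bases). Complex IV held both the highest and the lowest member of the whole set, Cox8a at 431 and Cox7b2 at 0.161 CPM per kb. Fewer than 10 CPM per kb were found for 8 members, 6 of them in complex IV and 2 in complex I. The 2 in complex I, Ndufb2 and Ndufab1, had long joined exons of 5628 and 6883 bases.

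The 6 low members of complex IV were each 1 copy of a paralogous set. Cox4i1 stood at 211.1 CPM per kb and Cox4i2, known from lung and hypoxia, at 1.45. Cox6a1 stood at 191.6 and the heart and muscle form Cox6a2 at 5.539, while Cox6b1 stood at 180.2 and the testis form Cox6b2 at 1.166. Cox7a2l and Cox7a2 stood at 119.7 and 69.7, and the heart and muscle form Cox7a1 at 1.579 CPM per kb. Cox7b stood at 85.5 and Cox7b2 at 0.1614, with 5 of the 56 mice at 0 for Cox7b2. Cox8b, outside the filter, was at 0.09735 CPM per kb, with 23 of the 56 mice at 0. Ndufa4 stood at 86.31 and its relative Ndufa4l2 at 2.156 CPM per kb. By contrast, the 3 genes for the identical mature subunit c of ATP synthase were within one range, with Atp5g1 at 20.66, Atp5g2 at 49.4 and Atp5g3 at 59.71 CPM per kb. Undivided they stood at 101.5, 82.74 and 130.2 CPM, so their order depended on the lengths used, 4912 bases for Atp5g1 and 1675 for Atp5g2. Recovered read counts of these 3 genes were whole numbers, so no splitting of reads between them showed. Decimal counts were found for 4 members, Ndufa13, Ndufb4, Ndufb4c and Uqcrc2, a list taken whole after it was seen. Reads of these 4 may have been split between similar copies by the authors' counting.

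**Figure D1:**
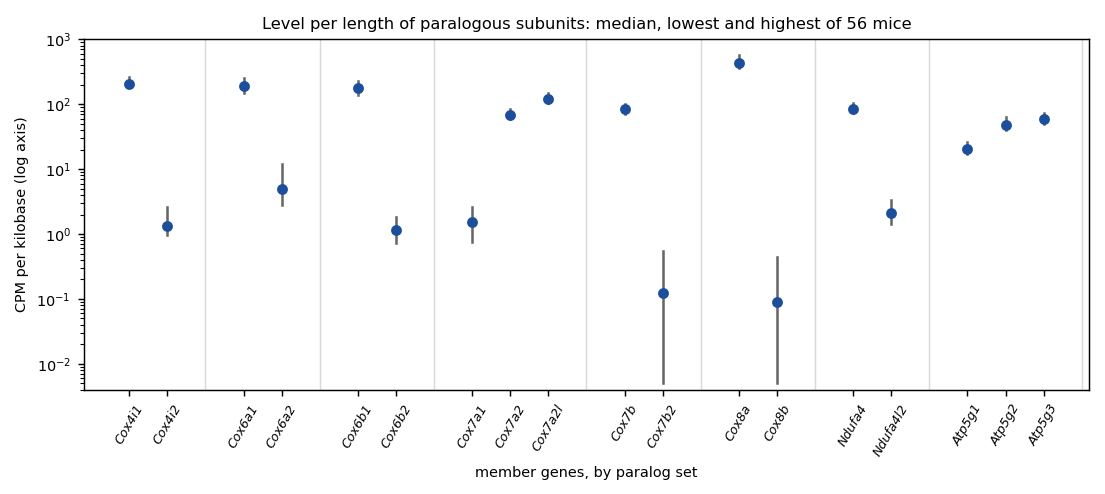
Levels of paralogous subunit genes in CPM per kb of gene length (log axis), with the median as a point and a line from the lowest to the highest of 56 mice. In the Cox4, Cox6a, Cox6b, Cox7a, Cox7b and Ndufa4 sets 1 copy lies more than 10-fold below the others, whereas Atp5g1, Atp5g2 and Atp5g3 lie between 20.66 and 59.71 CPM per kb on average.

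Within NRF the subunits followed a common course over the day. The mean deviation of the 84 members from their own averages was 0.08 ± 0.08 log2 at ZT0 (SD, n = 4 mice), 0.10 ± 0.09 at ZT4 and 0.08 ± 0.08 at ZT8. It then stood at 0.05 ± 0.07 at ZT12, 0.03 ± 0.04 at ZT16, -0.10 ± 0.04 at ZT20 and -0.09 ± 0.03 at ZT24. The NRF means were thus above the average from ZT0 to ZT16 and below it at ZT20 and ZT24, and the ZT0 and ZT24 mice, of the same clock time, lay on opposite sides. In DRF the same mean lay at -0.06 ± 0.05 at ZT0, 0.02 ± 0.08 at ZT4, -0.02 ± 0.12 at ZT8, 0.01 ± 0.08 at ZT12, 0.04 ± 0.16 at ZT16, -0.06 ± 0.01 at ZT20 and -0.08 ± 0.04 at ZT24. The DRF means therefore spanned less than the NRF means, and their widest group, ZT16, held the 2 libraries that stand apart, at 0.25 and 0.08. Each of the 5 complexes followed a similar course in NRF, with means of 0.07 to 0.09 at ZT8 and -0.05 to -0.10 at ZT20.

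**Figure D2:**
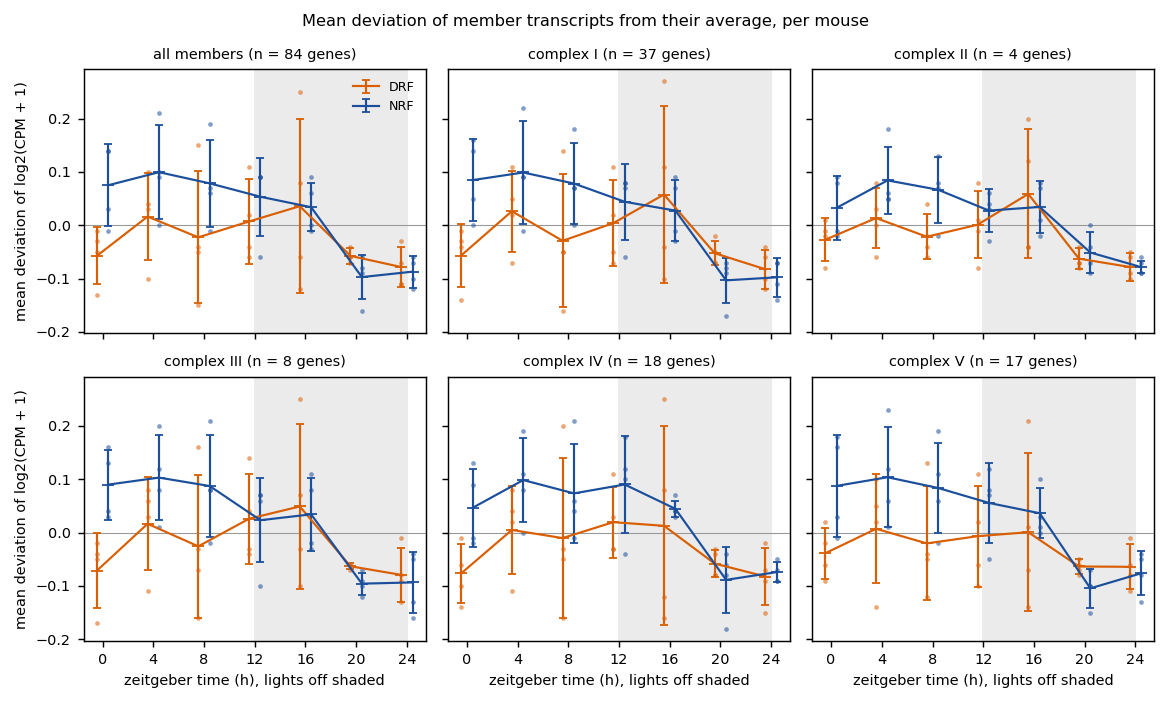
Mean deviation of member genes from their average (log2(CPM + 1)) by zeitgeber time for all 84 members and for each complex, in DRF and NRF, with points for single mice, lines for means of 4 mice, bars for ± SD and shading for lights off. The NRF means stand at 0.08 to 0.10 from ZT0 to ZT8 and at -0.10 and -0.09 at ZT20 and ZT24, while the DRF means stay between -0.08 and 0.04.

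Other properties of the libraries moved with this course. The slope of a library's deviations on gene length was -0.0417 log2 per doubling of length at NRF ZT4 and 0.0397 at NRF ZT24. The members are short, with a median length of 1522 against 4115 bases over all genes tested. With trends on length, GC content and expression removed from each library, the NRF mean was 0.06 ± 0.05 at ZT4, 0.05 ± 0.06 at ZT8 and -0.07 ± 0.03 at ZT20. The course kept its direction and lost part of its size. Members shorter than 1000 bases had a median ZT8 minus ZT20 difference of 0.17 log2, those of 1000 to 2000 bases 0.20, and those over 2000 bases 0.16. With trends removed the medians of these classes were 0.08, 0.09 and 0.17, so the shorter members lost more of the difference than the longer ones. Mice of one group also varied together across members. The median correlation of the within-group deviations over 3486 pairs of members was 0.54 in NRF and 0.57 in DRF, and 0.33 and 0.45 with trends removed. These pairs share the same 28 mice of a regimen and their libraries, so the 84 members are not independent measurements.

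Rhythms were tested in each regimen with JTK_CYCLE, a rank test against sinusoids, and by Lomb-Scargle, which fits sinusoids, over periods from 20 to 28 h, combined per gene by Fisher's method and adjusted by Benjamini-Hochberg over all 16245 genes. In NRF 18 of 84 members were rhythmic (21.4%) against 27.8% of all genes, a share below the background on the deposited values. By complex the count was 9 of 37 in I, 2 of 4 in II, 1 of 8 in III, 2 of 18 in IV and 4 of 17 in V. The count depended on the scale. On log2(CPM + 1) it was 33 (39.3%) against 28.3% of all genes. A 24-h cosine fitted in limma gave 39 (46.4%) against 38.6%, so both shares were above the background. With trends removed it was 27 of the 84, a share slightly above the 30.6% of all genes. Without the mice of any one replicate number, 1 from each group, it was 3 to 9, and without any one time point 4 to 21, with 4 when ZT20 was left out, 5 when ZT24 was, 8 when ZT8 was and 21 when ZT16 was. In DRF no member was called by the combined test (background 0.813%), by the same tests on log2(CPM + 1) (background 0.886%) or with trends removed (background 1.27%), or by the cosine in limma (background 1.13%). The combined test gave no unadjusted p under 0.05 for any member in DRF.

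The rhythmic members shared their timing. In all 18 the fitted cosine peaked between ZT6 and ZT12. That is the later part of the light phase and of the daily fast of NRF mice. Of all 4508 rhythmic genes 1356 peaked there and 2360 peaked between ZT18 and ZT24. These peaks come from a fit that takes ZT0 and ZT24 as the same phase. The NRF means of all members there were 0.08 and -0.09 log2. The measured NRF mean was highest at ZT4 (0.10), beside 0.08 at ZT0 and ZT8. Of all 84 members, rhythmic or not, the fitted NRF cosine peaked between ZT6 and ZT12 in 75 (89.3%), between ZT0 and ZT6 in 6, between ZT12 and ZT18 in 3 and between ZT18 and ZT24 in none. This timing was not particular to the members. Among cytosolic ribosomal proteins the fitted NRF peak lay between ZT6 and ZT12 in 70 of 80 (87.5%). The median NRF amplitude was small, at 0.09 log2 with a range of 0.01 to 0.30, against 0.07 over all genes. In DRF the median amplitude was 0.05, and the fitted peaks lay between ZT6 and ZT12 in 36 members and between ZT12 and ZT18 in 39. No test of the members' shared phase was made, since they are not independent of each other.

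**Figure D3:**
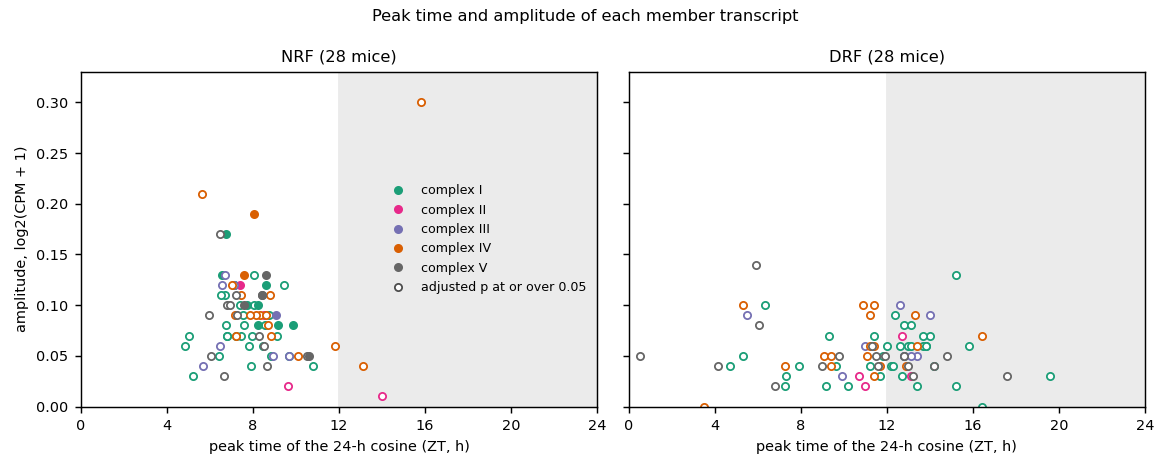
Fitted peak time (zeitgeber time, h) against amplitude (log2(CPM + 1)) of the 24-h cosine for each of the 84 members, in NRF and DRF, with members called rhythmic filled. The 18 rhythmic NRF members all lie between ZT6 and ZT12, and no DRF member is filled.

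In complex I, Ndufv3, a small accessory subunit of the NADH-binding module (gene 78330, chr17:31520115-31531326 in GRCm38), had the smallest adjusted p for rhythm of all members, though not the largest amplitude. In NRF its 4 mice stood at 6.12, 6.22, 6.07 and 6.22 log2(CPM + 1) at ZT8 and at 5.75, 5.81, 5.67 and 5.89 at ZT20. The ranges were apart, and in CPM the means were 70.41 ± 3.58 and 53.96 ± 3.45 (SD, n = 4). Its rhythm in NRF had an adjusted p of 1.81e-06 (JTK_CYCLE and Lomb-Scargle, combined over 28 mice), with a peak at ZT6.73 and an amplitude of 0.17 log2. In DRF the Ndufv3 values were 5.92, 5.85, 5.78 and 5.84 at ZT8 and 5.90, 5.78, 5.92 and 5.94 at ZT20. The DRF ranges overlapped, and in CPM the means were 56.67 ± 2.32 and 58.12 ± 2.84. Ndufv3 was also the 1 member of 84 whose rhythm differed between the regimens by the cosine-by-regimen term in limma (adjusted p = 0.00227, background 10.9%), with 6 members at an unadjusted p under 0.05. Leaving out the mice of replicate 3 or of ZT8 ended this call.

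The next rhythms of complex I were those of Ndufb11, an accessory subunit of the membrane arm, and Ndufa8, an accessory subunit on the intermembrane side. Ndufb11 peaked at ZT6.55 with an amplitude of 0.13 log2 (adjusted p = 0.00414, JTK_CYCLE and Lomb-Scargle), and Ndufa8 at ZT7.14 with 0.12 (adjusted p = 0.0128). In NRF Ndufb11 was at 6.17, 6.32, 6.10 and 6.18 log2(CPM + 1) at ZT8 and at 5.86, 5.86, 5.92 and 5.89 at ZT20, which again did not overlap. Ndufa9, an accessory subunit near the quinone site, peaked at ZT8.25 (adjusted p = 0.0169), and Ndufv1, the flavoprotein that binds NADH, at ZT9.86 (adjusted p = 0.0351). The amplitude of both was 0.08 log2.

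In complex II the iron-sulfur subunit Sdhb (gene 67680, chr4:140961271-140979198) was rhythmic in NRF, with an adjusted p of 6.81e-05, a peak at ZT7.41 and an amplitude of 0.12 log2 (JTK_CYCLE and Lomb-Scargle). Its NRF mice stood at 6.68, 6.73, 6.49 and 6.59 log2(CPM + 1) at ZT8 and at 6.38, 6.39, 6.36 and 6.34 at ZT20. All ZT8 mice were above all ZT20 mice, and the CPM means were 97.68 ± 7.25 and 81.68 ± 1.33. In DRF the Sdhb values were 6.65, 6.43, 6.36 and 6.41 at ZT8 and 6.50, 6.38, 6.39 and 6.41 at ZT20, which overlapped. Its difference in rhythm, the smallest p of complex II, did not pass (adjusted p = 0.12 in limma). The anchor Sdhc was called with an adjusted p of 0.0495 and a peak at ZT8.53. The catalytic partner of Sdhb, Sdha, had an amplitude of 0.02 log2 and an adjusted p of 0.989, so within the complex the subunits did not share one amplitude.

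In complex III the core protein Uqcrc1 (gene 22273, chr9:108936648-108949641) was the 1 member called in NRF (adjusted p = 0.00525, JTK_CYCLE and Lomb-Scargle), with a peak at ZT9.06 and an amplitude of 0.09 log2. Its NRF mice were at 7.84, 7.93, 7.76 and 7.85 log2(CPM + 1) at ZT8 and at 7.68, 7.67, 7.69 and 7.64 at ZT20, which did not overlap. The DRF mice were at 255, 205, 211 and 217 CPM for Uqcrc1 at ZT8 and at 221, 205, 217 and 205 CPM at ZT20, with 1 high mouse at ZT8 and the rest mixed. The small subunits Uqcrq and Uqcr10 followed with adjusted p of 0.084 and 0.202. Uqcrq had the smallest difference in rhythm of complex III (adjusted p = 0.0825 in limma), so no member of complex III passed.

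In complex IV the rhythms belonged to Cox7a1, the low-level heart and muscle form (gene 12865, chr7:30184171-30186030), and to Cox5b. Cox7a1 peaked at ZT8.03 with an amplitude of 0.19 log2 (adjusted p = 0.00243, JTK_CYCLE and Lomb-Scargle). Its NRF mice were at 1.05, 1.22, 0.84 and 1.08 log2(CPM + 1) at ZT8 and at 0.61, 0.76, 0.59 and 0.63 at ZT20, or 1.079 ± 0.223 and 0.5677 ± 0.0835 CPM. The groups did not overlap, although at about 1 CPM the level was low. Cox5b peaked at ZT7.6 with 0.13 (adjusted p = 0.00965), with NRF mice at 7.50, 7.73, 7.43 and 7.56 at ZT8 and 7.22, 7.22, 7.18 and 7.23 at ZT20. Cox4i1, the common form of subunit IV, had an adjusted p of 0.0591. Cox6a2, the other muscle form (gene 12862, chr7:128205435-128206366), went another way from the set. In NRF it was at 2.01, 2.27, 1.95 and 1.81 log2(CPM + 1) at ZT8, 3.21, 2.48, 2.91 and 1.98 at ZT12 and 2.57, 2.30, 2.34 and 2.82 at ZT20. The fitted Cox6a2 peak was ZT15.8 with the largest amplitude of the 84 members, 0.30 log2, but its spread was wide and its rhythm did not pass (adjusted p = 0.649).

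In complex V the subunit c gene Atp5g1 (gene 11951, chr11:96072793-96075694), the F1 head gene Atp5a1 and the membrane subunit Atp5j2 led. Atp5g1 peaked at ZT8.59 with an amplitude of 0.13 log2 (adjusted p = 0.000323, JTK_CYCLE and Lomb-Scargle). Its NRF mice were at 6.77, 6.90, 6.72 and 6.87 log2(CPM + 1) at ZT8 and at 6.57, 6.48, 6.47 and 6.54 at ZT20, with no overlap. In DRF Atp5g1 was at 6.89, 6.57, 6.53 and 6.67 at ZT8 and at 6.57, 6.44, 6.54 and 6.65 at ZT20, which overlapped. Members named for their NRF rhythm were picked on the same NRF mice, so their separate NRF ranges are no further support. Atp5a1 peaked later, at ZT10.6, with an amplitude of only 0.05 (adjusted p = 0.00206), and Atp5j2 at ZT7.59 with 0.10 (adjusted p = 0.0242). The smallest difference in rhythm of the complex was that of Atp5o, in the stalk (adjusted p = 0.113 in limma), so no member of complex V passed.

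**Figure D4:**
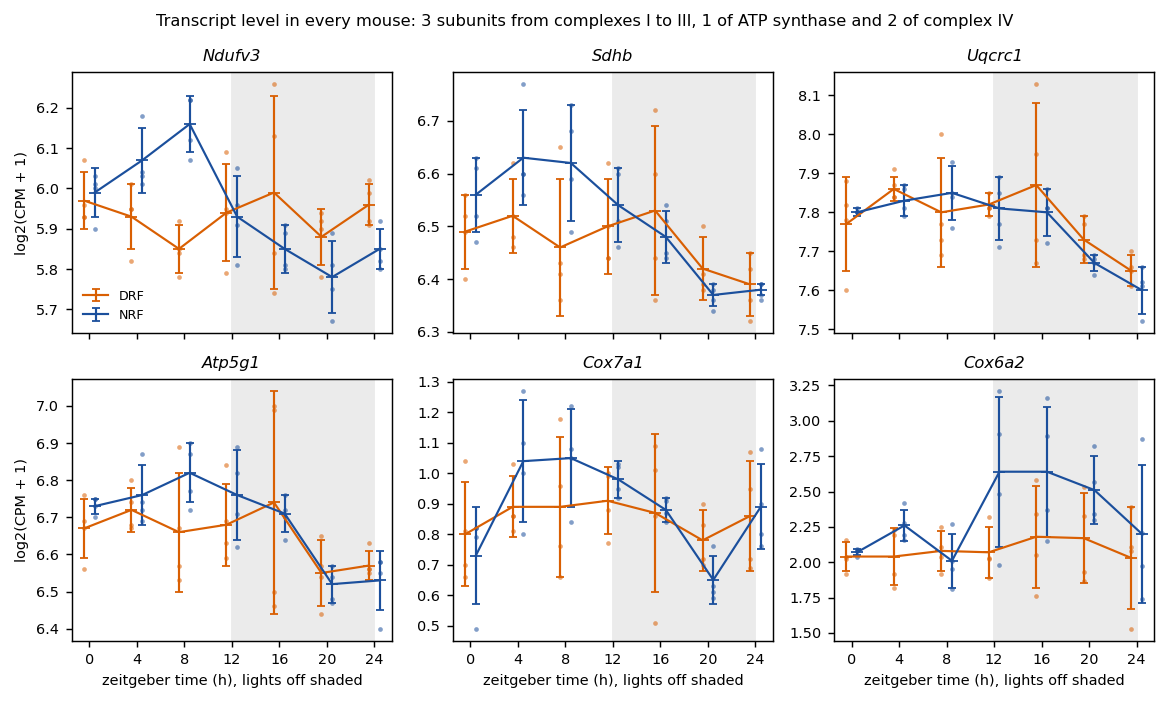
Values of Ndufv3, Sdhb, Uqcrc1, Atp5g1, Cox7a1 and Cox6a2 in every mouse (log2(CPM + 1)) by zeitgeber time, with DRF and NRF side by side, lines through the means of 4 mice, and bars for ± SD. For Ndufv3 the NRF mice fall from 6.07 to 6.22 at ZT8 to 5.67 to 5.89 at ZT20 while the DRF mice overlap, and Cox6a2 in NRF spreads from 1.98 to 3.21 at ZT12.

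The comparison of ZT8 with ZT20 asked how much the subunits changed between the later part of the light phase and that of the dark phase. In NRF, 32 members were called by limma, all higher at ZT8 (38.1%), against 19.8% of all genes called and 10.5% called higher. ZT8 was above ZT20 in 82 of the 84 members, against 49.7% of all genes, and the median difference was 0.17 log2 against -0.00 over all genes. By complex the calls were 14 in I, 2 in II, 4 in III, 6 in IV and 6 in V. With trends removed 29 of the 84 were called, 28 of them higher and Cox6a2 lower, and the median was 0.12. Of all genes 23.3% were called in that setting. In 45 members (53.6%) all 4 ZT8 mice were above all 4 ZT20 mice, which held for 15.2% of all genes. The reverse held for 1 member, Cox6a2, and for 16.3% of all genes. Without the mice of any one replicate number 10 to 21 members were called. Without the 2 DRF libraries of ZT16, which share the estimate of spread, 46 were called (background 27%).

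The largest called differences are named here after their values were seen. Atp5k, subunit e of ATP synthase, was higher at ZT8 by 0.42 ± 0.14 (SE, adjusted p = 0.0229 in limma). Cox7a1 was higher by 0.40 ± 0.11 (adjusted p = 0.00646), and Ndufa4l2 by 0.40 ± 0.11 (adjusted p = 0.0118). Uqcr11, a small subunit of complex III, was higher by 0.39 ± 0.13 (adjusted p = 0.0257) and Ndufv3 by 0.38 ± 0.07 (adjusted p = 8.93e-05). Cox5b and Cox6b1 were both higher by 0.34 ± 0.08 (adjusted p = 0.00365 and 0.00319). Among the others, Ndufb11 was higher by 0.31 ± 0.07, Atp5g1 by 0.30 ± 0.08, Sdhb by 0.25 ± 0.06 and Uqcrc1 by 0.17 ± 0.06. Cox6a2 was the lowest, at -0.50 ± 0.21 (adjusted p = 0.0828), and Sdha had 0.04 ± 0.03 (adjusted p = 0.217).

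Sorted by role after the values were seen, and so without a test, core and other subunits are given side by side. Of all genes limma called 19.8%, and 10.5% as higher at ZT8. Of the 7 core subunits of complex I it called none, with a median of 0.13 log2. Of the 30 other subunits it called 14, with a median of 0.18. With trends removed these medians were 0.04 and 0.13. By the cosine in limma the order was the other way. It called 4 of the 7 core subunits and 11 of the 30 others rhythmic, against 38.6% of all genes. In complex III 1 of the 3 core and Rieske proteins was called, with a median of 0.07, and 3 of the other 5, with a median of 0.29, which became 0.09 and 0.13 with trends removed. In complex V 1 of the 5 subunits of the F1 head and central stalk was called, with a median of 0.11, and 5 of the other 12, with a median of 0.20, which became 0.06 and 0.20. Among the 3 subunit c genes Atp5g1 and Atp5g3 were called, with a median of 0.25. Core subunits of complex I also have greater gene lengths, with a median of 2180 bases against 1150, and the part of length in this contrast was not tested.

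In DRF no member differed between ZT8 and ZT20 by limma (background 0.566%), with 1 at an unadjusted p under 0.05, and the cosine and the rank tests above called none either. The DRF median was 0.04 log2, from -0.09 to 0.19, with 64 of 84 members above 0. No member had all DRF mice of ZT8 above those of ZT20 (background 1.89%), or below (background 2.22%). The difference itself was called for Ndufv3 alone, at -0.41 ± 0.10 (DRF minus NRF, adjusted p = 0.0174 in limma, background 1.23%). That call was lost without the mice of replicate 1, 3 or 4. The difference was at an unadjusted p under 0.05 for 17 members, and 79 of the 84 were below 0, with a median of -0.14. These members vary together, and no share over all genes stands beside these counts. For the other members a difference between regimens was not shown, although 32 were called in NRF.

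**Figure D5:**
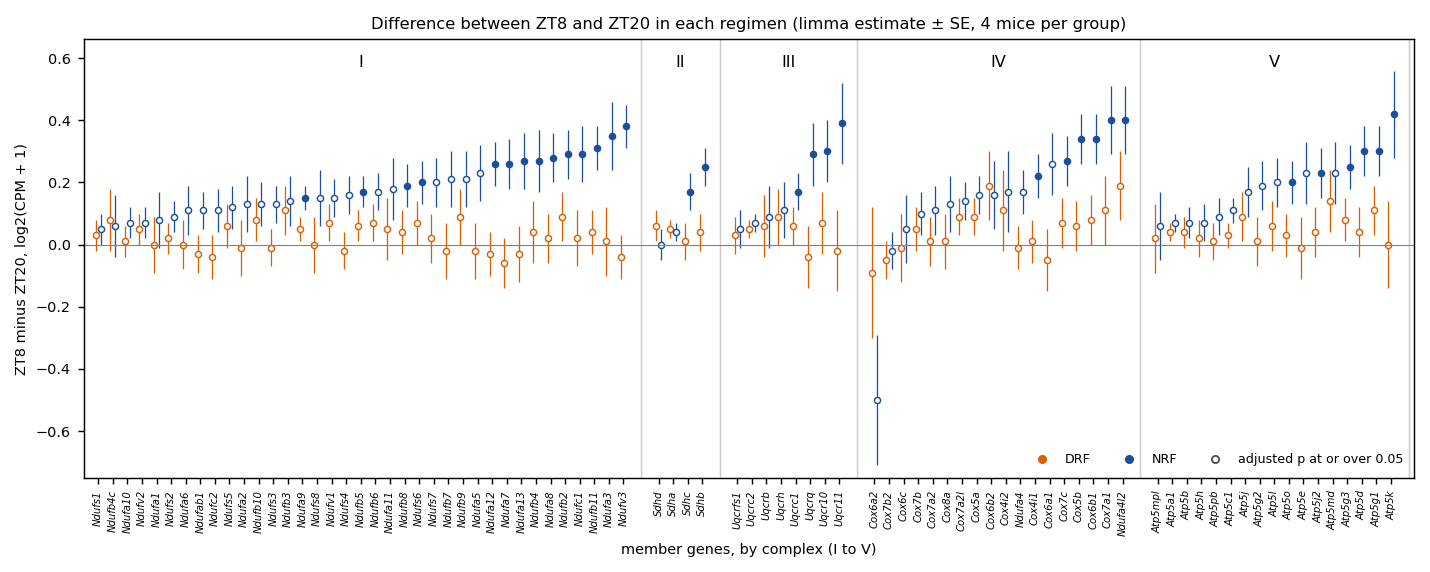
Difference between ZT8 and ZT20 (log2(CPM + 1)) for each of the 84 members, grouped by complex, in NRF and DRF, with bars for ± SE and members called by limma filled. NRF members lie at a median of 0.17 with 32 filled and Cox6a2 at -0.50, and DRF members lie at a median of 0.04 with none filled.

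The ZT0 and ZT24 mice were collected at the same clock time in the cycle and differed in NRF. By limma 9 members were called, all lower at ZT24 (10.7%), against 2.12% of all genes called and 0.782% called lower. The calls were Ndufab1, Ndufb11, Ndufb4c, Ndufb5, Ndufb6 and Ndufc2 in complex I, Cox8a in complex IV, and Atp5c1 and Atp5j2 in complex V, and the list was taken whole after it was seen. The differences ran from -0.16 for Atp5c1 (adjusted p = 0.0436) to -0.43 for Ndufb4c (adjusted p = 0.0236). Ndufb4c had decimal read counts, as had Ndufb4, and a default length of 1000 bases. Its value may therefore depend on how reads were shared between copies. Ndufb11, for example, was at 6.28, 6.26, 6.13 and 6.13 log2(CPM + 1) at ZT0 and at 6.01, 6.04, 5.94 and 5.79 at ZT24, with no overlap. Of the 84 members, which vary together, 78 were below 0, and the median over all members was -0.18. Its size stands beside the median ZT8 to ZT20 difference of 0.17 in the same regimen. The result was not stable, with 3 calls when trends were removed (median -0.08, background 0.653%), 0 when the mice of any one replicate number were left out of all 14 groups, and 28 without the 2 DRF libraries of ZT16, which share the estimate of spread (background 6.84%). In DRF none was called by limma (background 0.468%), with 3 at an unadjusted p under 0.05, and the median was -0.02. The difference between the regimens was called for no member (background 0.00616%), with 9 at an unadjusted p under 0.05.

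Averaged over all 7 time points, 14 members differed between regimens by limma, all lower in DRF (16.7%), against 10.4% of all genes called and 4.87% called lower. The differences were small, with a median of -0.04 log2 over the 84 members and 76 of them below 0, a count of genes that vary together. The blood and oligodendrocyte markers given above also differed between the regimens in range or median, and their part in these differences was not tested. Atp5pb, subunit b of the peripheral stalk of ATP synthase (gene 11950, chr3:105942698-105959263), was lower in DRF by 0.11 ± 0.02 (adjusted p = 0.00174). Uqcrc2, the second core protein of complex III, differed by -0.05 ± 0.01 (adjusted p = 0.00752), Ndufb6 by -0.09 ± 0.02 (adjusted p = 0.01), Atp5j by -0.10 ± 0.03 (adjusted p = 0.0161) and Uqcrb by -0.13 ± 0.04 (adjusted p = 0.0166). The largest difference was that of Cox6a2, at -0.25 ± 0.08 (adjusted p = 0.0344), which ran from 1.53 to 2.58 with a median of 2.04 in the 28 DRF mice and from 1.74 to 3.21 with a median of 2.24 in the 28 NRF mice. These level differences depended on the correction of the libraries. With trends removed 4 members were called (3 lower and 1 higher, background 7.28%), the median was -0.01, Atp5pb stood at -0.01 (adjusted p = 0.863) and the sign of Uqcrc2 turned, to 0.01. Without the mice of any one replicate number 2 to 13 were called, and without the 2 DRF libraries of ZT16 27 were (background 10.3%).

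At single time points the regimens seldom differed in these genes. At ZT0 limma called 2 members lower in DRF (4.41% of all genes called, 2.09% lower), the acyl carrier protein Ndufab1 at -0.23 ± 0.06 (adjusted p = 0.02) and Ndufc1 at -0.30 ± 0.09 (adjusted p = 0.0445). ZT0 also held 38 members at an unadjusted p under 0.05 and a median of -0.14. No share of all genes stands beside this count, so it is not read as a result about the members. With trends removed 2 were called lower at ZT0 (background 8.55%), and without the 2 DRF libraries of ZT16, which share the estimate of spread, 8 were (background 7.2%). At ZT4 it called Uqcrc2 at -0.12 ± 0.03 (adjusted p = 0.0406, background 3.91%) and at ZT8 Ndufv3 at -0.31 ± 0.07 (adjusted p = 0.0466, background 0.172%). No member was called by limma at ZT12 (background 1.48%), ZT20 (background 1.14%) or ZT24 (background 0.283%), with 3, 3 and 0 at an unadjusted p under 0.05. At ZT16 6 were called, 5 lower and 1 higher in DRF, against 19.9% of all genes called, 13.4% lower and 6.58% higher. Atp5pb at ZT16 was at 7.74, 7.69, 7.58 and 7.27 in DRF and at 7.80, 7.89, 7.76 and 7.84 in NRF, and the lowest DRF mice were the 2 libraries that stand apart. Without those 2 no member was called at ZT16 by limma (background 0.203%). With trends removed the split turned, to 6 higher and 2 lower in DRF (background 10.8%).

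Genes that assemble, feed or regulate the chain were counted for comparison, from lists fixed with earlier results of these data known. Of 48 assembly factors 10 (20.8%) were rhythmic in NRF by JTK_CYCLE and Lomb-Scargle, against 27.8% of all genes. Sdhaf1, which inserts iron-sulfur clusters into Sdhb, peaked at ZT7.69 (adjusted p = 1.64e-05) and Ndufaf3 at ZT8.61 (adjusted p = 0.00351), near the subunits, whereas the ATP synthase factor Tmem70 peaked at ZT19.1 (adjusted p = 0.00303). The assembly factors' median ZT8 minus ZT20 difference in NRF was 0.05 log2, against 0.17 for the subunits, with 7 called higher and 2 lower by limma, against 10.5% and 9.28% of all genes. Of 20 genes of the tricarboxylic acid cycle and pyruvate dehydrogenase 4 (20%) were rhythmic, among them Idh3g with a peak at ZT8.53 (adjusted p = 1.14e-05), Mdh2 at ZT9.1 (adjusted p = 0.00193) and Idh2 at ZT14.2 (adjusted p = 5.55e-05). Of 13 genes for carriers, channels and other proteins of the mitochondrial membranes 4 (30.8%) were rhythmic. Among them were the ADP/ATP carrier Slc25a4, which peaked at ZT8.99 (adjusted p = 0.00344), Ucp2 at ZT8.74 (adjusted p = 0.00299) and Slc25a27 at ZT17.7 (adjusted p = 0.00584). Neither of the 2 cytochrome genes, Cycs and Cyc1, was rhythmic (adjusted p = 1 and 0.28).

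Regulators of mitochondrial biogenesis were not gathered at the phase of the subunits. Of 14 such genes 6 (42.9%, against 27.8% of all genes) were rhythmic in NRF by JTK_CYCLE and Lomb-Scargle. Of these 5 peaked between ZT18 and ZT24, where 2360 of the 4508 rhythmic genes also peaked. On log2(CPM + 1) the count was 5 (35.7%, against 28.3%). With trends removed it was 4 of the 14, a share below the 30.6% of all genes in that setting. The fitted peaks of all 14 lay between ZT0 and ZT6 in 1, between ZT6 and ZT12 in 3, between ZT12 and ZT18 in 5 and between ZT18 and ZT24 in 5. Gabpa, the DNA-binding subunit of GABP, peaked at ZT20.4 with an amplitude of 0.23 log2 (adjusted p = 3.37e-07), and the gene Nrf1 at ZT21.9 with 0.15 (adjusted p = 8.14e-05). Both were lower at ZT8 than at ZT20 in NRF by limma, Gabpa at -0.48 ± 0.11 (adjusted p = 0.00115) and Nrf1 at -0.31 ± 0.05 (adjusted p = 3.41e-06). Their difference in rhythm between regimens also passed, with an adjusted p of 0.0368 for Gabpa and 0.000314 for Nrf1. Ppargc1a, which encodes PGC-1alpha, Esrra and Tfam were not rhythmic in NRF (adjusted p = 1, 0.24 and 1).

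Genes of other large complexes were compared with the subunits. In NRF 22 of 80 cytosolic ribosomal proteins (27.5%), 26 of 78 mitochondrial ribosomal proteins (33.3%) and 14 of 39 proteasome subunits (35.9%) were rhythmic, against 27.8% of all genes. Their median ZT8 minus ZT20 differences were 0.17, 0.09 and 0.05 log2, against 0.17 for the respiratory chain, and all 4 ZT8 mice were above all ZT20 mice in 51.2%, 32.1% and 33.3% of their genes, against 53.6%. With trends removed the cytosolic ribosomal proteins had a median of 0.08, where the respiratory chain stood at 0.12. A ZT8 level above ZT20 in NRF was thus also the rule among cytosolic ribosomal proteins. All 22 rhythmic cytosolic ribosomal proteins peaked between ZT6 and ZT12 in NRF. So did 20 of the 26 rhythmic mitochondrial ribosomal proteins and 10 of the 14 rhythmic proteasome subunits. In none of these lists was any gene rhythmic in DRF by the combined test.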

How the data were processed

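Poly(A) RNA of 56 mice was sequenced on a BGISEQ platform. Reads were cleaned with SOAPnuke, aligned with HISAT2 and Bowtie2, quantified with RSEM against GRCm38.p6 and TMM-normalised by the authors. The deposited value per gene and mouse is a score that the authors named TPM. It proved proportional to log2(CPM + 1) divided by gene length, scaled to one total per library, and log2(CPM + 1) was recovered from the spacing of low values in 1141 genes. For 49 genes, none a member, the annotated length alone was used. The scaling factor varied by about 1% between libraries and ran against the members in NRF, so the rhythm counts differ between the 2 scales.

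Genes with a deposited value of at least 1 in 80% of mice were tested. Rhythms were computed within each regimen on deposited values with JTK_CYCLE and Lomb-Scargle (periods of 20 to 28 h), combined by Fisher's method. All other tests used limma 3.58.1 with a trended prior on log2(CPM + 1), either a 24-h cosine by regimen or the means of the 14 groups over all 56 mice. Benjamini-Hochberg adjustment ran over all genes with a threshold of 0.05, two-sided. Counts at an unadjusted p under 0.05 are given without the share over all genes and are not read as results. Counts of members above or below 0 have that share beside them for ZT8 minus ZT20 in NRF only. Scripts used Python 3.11.15, numpy 2.4.6, pandas 2.3.3, scipy 1.17.1, matplotlib 3.10.9 and R 4.3.3, and were tested on simulated data. Trends removed means that a smooth function of length, GC content and expression level was subtracted from each library.

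Each mouse is a separate animal of its labelled group. Same-numbered mice of different groups had a median correlation of deviations of 0.015, against -0.0146 for other numbers. The numbers were therefore not treated as pairs. With correlations from -0.618 to 0.613 and from -0.632 to 0.636, this comparison cannot exclude a shared batch. The members and lists were chosen with earlier results of these data known. Genes named were, per complex, the 3 smallest p for NRF rhythm and the smallest for the difference in rhythm, the extremes of level per length, paralogous sets, the smallest p among members called for level or at one time point, Ndufv1, Ndufv3, Ndufa8, Ndufa9, Sdhb and Cox7a1, and for other lists up to 3 called genes plus Ppargc1a, Nrf1, Gabpa, Esrra and Tfam. Further names are stated as chosen after their values were seen.

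Alternatives were leaving out each replicate number, each time point or ZT16, no filter, trends removed, log2 of the deposited value plus 1, JTK_CYCLE alone, a cosine in limma and a replicate block. Median centring, rhythm tests on log2(CPM + 1) and leaving out 2 DRF libraries of ZT16 were chosen after seeing the data.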

Additional observations from a re-analysis of the deposited data

Results flagged for a closer look

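The rhythm of Ndufv3 differed between regimens (limma, adjusted p = 0.00227), and so did its ZT8 to ZT20 difference, at -0.41 log2 for DRF minus NRF.

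Within groups of 4 mice, 3 values lay apart from the rest by Dixon's test. The mean deviation of the members was -0.057 log2 in NRF ZT12 replicate 4, Atp5pb stood at 7.92 log2(CPM + 1) in NRF ZT4 replicate 2, and Cox7a1 stood at 0.49 in NRF ZT0 replicate 4. Chance flags about 1 in 20 groups, and over all named genes 33 of 644 groups (5.12%) were past the critical value.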

How the results depend on the processing

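All counts in DRF alone were 0 in every setting run. Without the 14 mice of one replicate number, the rhythm count in NRF ranged from 3 to 9 (18 as reported), the difference in rhythm from 0 to 2 (1), the level from 2 to 13 (14), calls at single time points from 0 to 15 (10), ZT8 minus ZT20 in NRF from 10 to 21 (32), its difference between regimens from 0 to 1 (1) and ZT24 minus ZT0 in NRF was 0 (9). These fits have fewer mice. Leaving out one time point gave 4 to 21 rhythmic members (8 without ZT8, 17 without ZT12, 21 without ZT16, 4 without ZT20, 5 without ZT24) and 0 to 2 differences in rhythm (0 without ZT8, 2 without ZT20). The rhythm count was 33 on log2(CPM + 1) and 39 with a cosine in limma. Removing trends gave 5 differences in rhythm, 4 level calls and 3 for ZT24 minus ZT0, and turned the level sign of Ndufa4 (0.02) and Uqcrc2 (0.01). Log2 of the deposited value plus 1 gave 6 level calls and 4 for ZT24 minus ZT0, and median centring 8 level calls. Leaving out the 2 DRF libraries of ZT16 gave 27 level calls 28 for ZT24 minus ZT0 and 46 for ZT8 minus ZT20 in NRF, and leaving out all of ZT16 gave 26 and 47 for the last 2. The share of NRF peaks between ZT6 and ZT12 was 76.2% by JTK_CYCLE peak times. Where no construction is named, the cause was not tested. With the replicate block, 43 members were rhythmic by the cosine, against 39 without it, 33 were called for ZT8 minus ZT20 in NRF, 18 for level and 12 for ZT24 minus ZT0, and it moved no other count. Over the single genes named, 325 values stayed on their side of the threshold under an alternative, 120 lost the call and 2 level differences changed sign. With 4 mice a group and changes of about 0.1 log2, within-group spreads of 0.09 to 0.13 log2 limit what a single gene can show.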
